A study of Mus musculus with 8 samples.

Results

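MHC class II and dendritic cell genes were measured in livers of 4 control and 4 Smo-KO mice. The group holds 10 genes of the 25239 symbols counted: H2-Aa, H2-Ab1, H2-Eb1, H2-DMa, H2-DMb1, Cd74, Ciita, Flt3, Xcr1 and Clec9a. They were chosen by name, with earlier results of these data known. All mice were adult male Smo flox/flox animals on a C57Bl6/J background, so the control mice, whose genotype the sample labels give as WT, also carried the floxed Smo allele. All were fed the CDA-HFD, a choline-deficient, amino acid-defined high-fat diet that induces steatohepatitis, for 6 weeks. At 1 week before sacrifice control mice received AAV8-TBG-Luciferase and Smo-KO mice received AAV8-TBG-Cre Recombinase by tail vein. The TBG promoter is active in hepatocytes, whereas the genes described here are used mainly by immune cells, and RNA came from whole liver. In such bulk RNA, fewer cells of a type and less RNA per cell cannot be told apart. The comparison asks how loss of Smo in hepatocytes, which disrupts their Hedgehog signaling, goes along with the level of these genes in steatohepatitis.

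MHC class II molecules display peptides from engulfed material to CD4+ T cells. Each is a pair of an alpha and a beta chain that is assembled with the invariant chain, encoded by Cd74, and is loaded with peptide with the help of H2-DM. Transcription of these genes depends on CIITA, a coactivator that interferon gamma induces and that acts through proteins bound to the X and Y boxes of class II promoters. In liver, dendritic cells, B cells, macrophages and sinusoidal endothelial cells can carry class II. Conventional type 1 dendritic cells (cDC1), which need the cytokine receptor Flt3 for their development and present antigen of dead cells to CD8+ T cells, are marked by Xcr1 and Clec9a.

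The classical chains lie together on chromosome 17 of the mouse build GRCm38, with H2-Ab1 at chr17:34263227-34269418, H2-Aa at chr17:34282744-34287823 and H2-Eb1 at chr17:34305867-34316674. H2-DMa (chr17:34119693-34139101) and H2-DMb1 (chr17:34153191-34160229) lie in the same region, Ciita is at chr16:10480014-10531064, Flt3 at chr5:147330741-147400489, Clec9a at chr6:129408862-129424764 and Xcr1 at chr9:123852315-123862029. Promoter sequences of RefSeq (GRCm38.p6) were at hand for 7 of the 10 genes, but not for H2-Ab1, Ciita and Cd74. Promoters of the 3 class II genes in which letters of both the X and the Y box were found in order are shown. The table also holds 2 promoters of H2-DMa, in which that pair was not found. Each runs 5′ to 3′ over the 120 bases before the annotated start, and capitals mark matches to CTNGNAAC, letters of the X box, and to ATTGG, the core of the Y box.
H2-Aa (chr17:34287824-34287943, minus strand): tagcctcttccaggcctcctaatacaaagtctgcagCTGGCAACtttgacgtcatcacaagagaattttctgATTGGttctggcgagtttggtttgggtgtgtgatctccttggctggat
H2-Eb1 (chr17:34305747-34305866, plus strand): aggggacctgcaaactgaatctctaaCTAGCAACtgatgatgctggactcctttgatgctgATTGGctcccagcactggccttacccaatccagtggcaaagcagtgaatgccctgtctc
H2-DMb1 (chr17:34153071-34153190, plus strand): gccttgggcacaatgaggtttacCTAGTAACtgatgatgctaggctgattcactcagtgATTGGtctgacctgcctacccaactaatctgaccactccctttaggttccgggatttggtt
In the 3 promoters shown the X box letters began 84 to 97 bases and the Y box letters 48 to 61 bases before the start. Over the 32851 promoters in the table, each of 250 bases before to 50 bases after a start, 0.438% held CTNGNAAC followed within 40 bases on the same strand by ATTGG. The letters CTNGNAAC were chosen after these promoters had been read. With CNNGCAAC, chosen earlier, 0.46% of all promoters held the pair, as did those of H2-Aa and H2-Eb1. On either strand CCAAT was in 37.4%, CNNGCAAC in 11.2% and CTNGNAAC in 13.2% of promoters. The interferon-stimulated response element was in 3.44% and TTCNNNGAA, letters of the gamma-activated site, in 8.30%, and neither was in a promoter of the 7 genes. A match is a description of letters and not evidence of a bound factor.

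Each liver had 8203299 to 9999732 reads on genes, and 3 reads corresponded to between 0.296 and 0.365 CPM (reads scaled to library size by edgeR's TMM method). Smo, the targeted gene, had 8.16, 8.48, 8.73 and 8.20 CPM (control mice 1 to 4) against 5.66, 3.92, 4.26 and 4.37 CPM (Smo-KO mice 1 to 4). It averaged 8.39 ± 0.270 CPM in control and 4.55 ± 0.764 CPM in Smo-KO livers (SD, n = 4 each), and the groups did not overlap (edgeR adjusted p 0.0957, DESeq2 0.00646). Hepatocyte markers summed to 24354 ± 1918 CPM and 23699 ± 644 CPM, of which Alb made up 16551 ± 972 CPM in control and 15320 ± 896 CPM in Smo-KO livers, and the log2 fold changes of Apoa1 and Serpina1c were 0.18 and 0.17. Values of the class II and dendritic cell genes are given below per liver, followed by edgeR's quasi-likelihood test over 12977 genes with Benjamini-Hochberg adjustment. All 10 genes passed the filter on low counts.

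Class II genes and their coactivator were lower on average in Smo-KO than in control livers. Among the dendritic cell receptors, Clec9a and Flt3 were at nearly the same mean level, whereas Xcr1 averaged 65.1% of control. Flt3 and Xcr1 had too few reads to tell a difference from none. Of the 10 genes, 9 had a lower mean and 6 had an unadjusted p under 0.05, all 6 lower: H2-Aa, H2-Ab1, H2-Eb1, H2-DMa, Cd74 and Ciita. Among all genes tested 13.8% passed that threshold, 7.15% lower and 6.7% higher, and 50.1% had a log2 fold change under 0. Since the 10 genes were chosen with earlier results of these data known, these shares are a description and no test. By edgeR 0 of the 10 were called at an adjusted p under 0.05, as were 0% of all genes, or 0.0616% with the replicate number as a block. DESeq2's Wald test gave 5 of the 10 an adjusted p under 0.05, all lower (H2-Aa, H2-Ab1, H2-Eb1, Cd74 and Ciita), where 1.29% of all genes were called and 0.655% were called lower. The median log2 fold change of the 10 genes was -0.61, against 0.00 over all genes (-0.000842 before rounding). In 1 of the 10 genes, Ciita, every Smo-KO liver was below every control liver, and this held for 4.34% of all genes, against 3.03% with the opposite order and 7.37% in either direction.

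**Figure D1:**
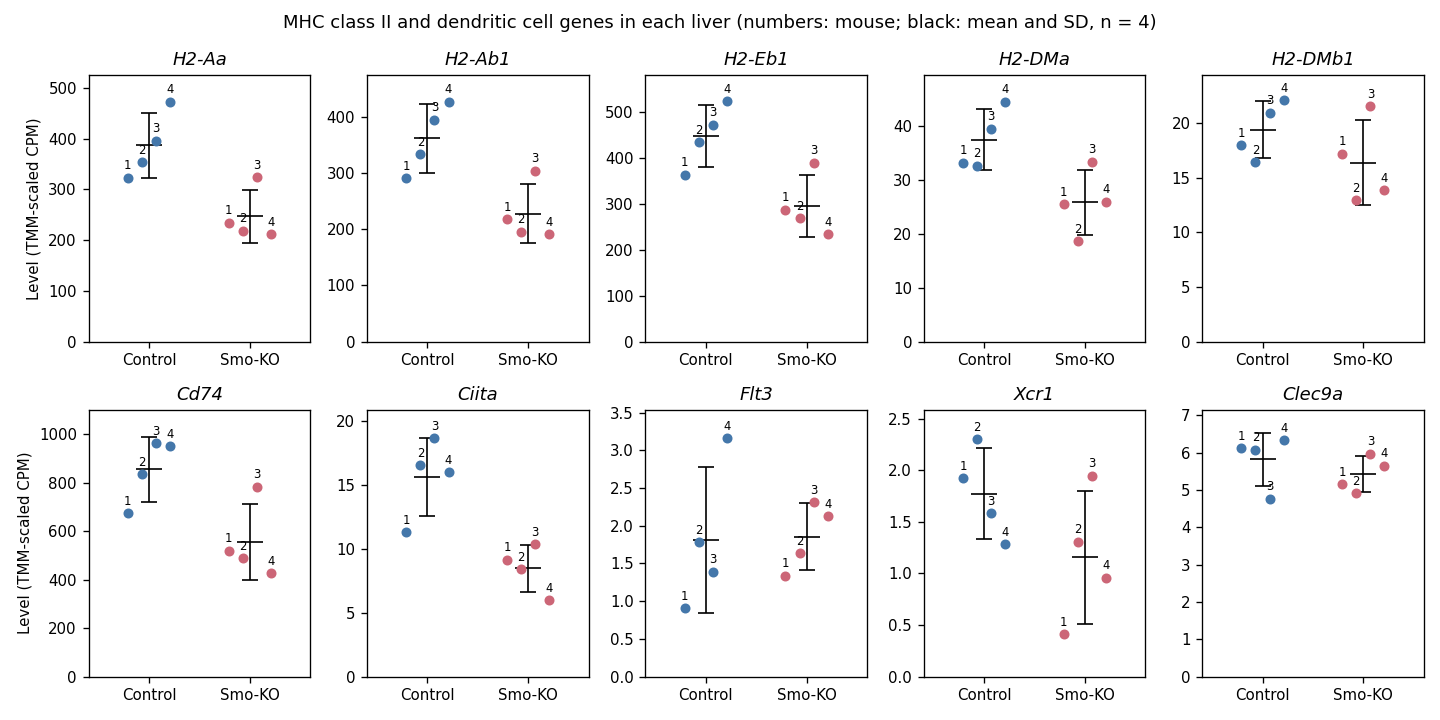
Level of each of the 10 genes in TMM-scaled CPM (linear axes from 0) in control (blue) and Smo-KO (red) livers. Points are single livers with the mouse number, and black bars give the mean and SD (n = 4). In the class II genes Smo-KO mouse 3 stands above the other Smo-KO mice and within or near the control range.

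H2-Aa encodes the alpha chain of the class II molecule I-A. It had 323, 354, 396 and 473 CPM (control mice 1 to 4) against 235, 219, 324 and 212 CPM (Smo-KO mice 1 to 4). Smo-KO mouse 3 lay just above control mouse 1, and the other 3 Smo-KO mice lay below all control mice. The Smo-KO mean was 64.0% of the control mean, with a log2 fold change of -0.64 (standard error 0.15, edgeR adjusted p 0.133, DESeq2 0.0111). By a two-sided exact permutation test of the 8 values p was 0.0571, where 4 mice against 4 can give no less than 0.0286.

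H2-Ab1, the beta chain of I-A, had 291, 333, 395 and 427 CPM (control mice 1 to 4) against 218, 195, 304 and 192 CPM (Smo-KO mice 1 to 4). Again only Smo-KO mouse 3 reached the control range. The log2 fold change was -0.67 (standard error 0.16, edgeR adjusted p 0.1399, DESeq2 0.0119). H2-Eb1 encodes the beta chain of the second class II molecule, I-E. It had 365, 435, 473 and 524 CPM (control mice 1 to 4) against 288, 270, 390 and 235 CPM (Smo-KO mice 1 to 4), with the same single mouse in the control range and a log2 fold change of -0.60 (standard error 0.15, edgeR adjusted p 0.151, DESeq2 0.0227). Its alpha chain partner H2-Ea, which mice of the C57BL/6 haplotype do not express, had at most 2 reads in any liver.

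The 3 classical chains kept nearly fixed proportions. The ratio of H2-Ab1 to H2-Aa reads was between 0.893 and 0.996 in the 8 livers (coefficient of variation 3.69%), and that of H2-Eb1 to H2-Aa was between 1.11 and 1.23 (4.67%). The livers also had the same order in all 3 genes, from control mouse 4 as the highest through control mice 3 and 2, Smo-KO mouse 3, control mouse 1 and Smo-KO mice 1 and 2 to Smo-KO mouse 4 as the lowest. These values share 1 library per liver, so they are not independent measurements.

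Among the genes of assembly and peptide loading, Cd74, the invariant chain, had the highest level. It had 674, 834, 964 and 950 CPM (control mice 1 to 4) against 519, 489, 784 and 426 CPM (Smo-KO mice 1 to 4). The groups overlapped only through Smo-KO mouse 3, which was above control mouse 1. The log2 fold change was -0.63 (standard error 0.17, edgeR adjusted p 0.175, DESeq2 0.0387). The ratio of Cd74 to H2-Aa reads was 2.22 ± 0.206 in control and 2.22 ± 0.168 in Smo-KO livers.

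H2-DMa and H2-DMb1 encode the chains of H2-DM, which exchanges the invariant chain fragment for peptide. H2-DMa had 33.2, 32.7, 39.5 and 44.6 CPM (control mice 1 to 4) against 25.5, 18.6, 33.4 and 26.0 CPM (Smo-KO mice 1 to 4), and Smo-KO mouse 3 lay above 2 control mice. Its log2 fold change was -0.54 (standard error 0.16, unadjusted p 0.00500, edgeR adjusted p 0.190). H2-DMb1 overlapped more between the groups, with 18.0, 16.4, 20.9 and 22.1 CPM (control mice 1 to 4) against 17.2, 12.96, 21.6 and 13.8 CPM (Smo-KO mice 1 to 4). Its log2 fold change was -0.25 (95% interval -0.60 to 0.10, edgeR adjusted p 0.522), which leaves both a decrease like that of H2-DMa and no difference within the interval. It was -0.40 without Smo-KO mouse 3 and -0.15 without Smo-KO mouse 2. The neighbouring paralog H2-DMb2 was at 15.6 ± 1.28 CPM in control and 12.1 ± 2.61 CPM in Smo-KO livers (log2 fold change -0.38, edgeR adjusted p 0.287). Since H2-DMb1 and H2-DMb2 are close copies, reads may have been split between them or lost.

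Ciita, which encodes the coactivator of class II transcription, was the gene of the group with the smallest p-value and ranked 40th of all 12977 genes. It had 11.3, 16.5, 18.7 and 16.01 CPM (control mice 1 to 4) against 9.16, 8.39, 10.4 and 5.96 CPM (Smo-KO mice 1 to 4), from 56 to 188 reads per liver. The groups did not overlap, though control mouse 1 and Smo-KO mouse 3 were close (exact permutation test, two-sided p = 0.0286, the smallest possible). The Smo-KO mean was 54.2% of the control mean, with a log2 fold change of -0.89 (standard error 0.19, edgeR adjusted p 0.116, DESeq2 0.00563). The ratio of Ciita to H2-Aa reads was 0.0407 ± 0.00722 in control and 0.0344 ± 0.00524 in Smo-KO livers, and the groups overlapped (p = 0.229 by a two-sided exact permutation test, 4 livers a group).

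Of the dendritic cell receptors, Clec9a, the cDC1 receptor for filaments exposed by dead cells, was the best measured, with 45 to 64 reads per liver. It had 6.12, 6.07, 4.76 and 6.32 CPM (control mice 1 to 4) against 5.15, 4.90, 5.97 and 5.64 CPM (Smo-KO mice 1 to 4). All Smo-KO values lay within the control range. The log2 fold change was -0.10 (95% interval -0.45 to 0.25, edgeR adjusted p 0.813). It was -0.19 without control mouse 3, and -0.06 both without control mouse 4 and without Smo-KO mouse 2.

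Flt3, the receptor tyrosine kinase for Flt3 ligand, had 0.906, 1.78, 1.39 and 3.16 CPM (control mice 1 to 4) against 1.34, 1.63, 2.31 and 2.13 CPM (Smo-KO mice 1 to 4). These values rest on 8 to 32 reads, the Smo-KO values all lie within the control range, and the 95% interval of the log2 fold change ran from -0.76 to 0.78 (edgeR adjusted p 0.994). Xcr1, the chemokine receptor for Xcl1, had 1.93, 2.30, 1.59 and 1.28 CPM (control mice 1 to 4) against 0.412, 1.31, 1.95 and 0.958 CPM (Smo-KO mice 1 to 4), from 4 to 22 reads. The log2 fold change was -0.64, but its 95% interval was wide (-1.46 to 0.19) and the groups overlapped (edgeR adjusted p 0.484). It was -0.34 without Smo-KO mouse 1, the liver with 4 reads, and -0.99 without Smo-KO mouse 3. At this depth neither a difference nor its absence was detectable for Flt3 and Xcr1.

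Whether the class II genes moved differently from Clec9a was tested on read ratios within a liver, in which library size cancels; the 9 pairs of genes were chosen after their values had been seen. The ratio of Clec9a to H2-Aa reads was 0.0189, 0.0172, 0.0120 and 0.0134 in control mice 1 to 4 and 0.0219, 0.0224, 0.0184 and 0.0266 in Smo-KO mice 1 to 4. Smo-KO mouse 3 was below control mouse 1, and the other 3 Smo-KO mice were above all control mice. The log2 ratio was higher in Smo-KO livers by 0.55 (p = 0.0571 by a two-sided exact permutation test, 4 livers a group), and by Benjamini-Hochberg adjustment over the 9 ratios computed p was 0.171. The ratio of H2-DMb1 to H2-Aa reads was the only one of the 9 whose groups did not overlap, at 0.0505 ± 0.00459 in control and 0.0661 ± 0.00577 in Smo-KO livers (p = 0.0286 by a two-sided exact permutation test, adjusted 0.171). With a smallest possible p of 0.0286, no ratio could pass the adjustment unless at least 6 of the 9 had reached it, so these values neither show nor exclude a difference in response between these genes.

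Compared per length of the longest coding transcript (GENCODE M21), control levels ran over a wide range. Cd74 was the highest at 607 ± 95.3 CPM per kilobase, followed by H2-Aa at 343 ± 57.5, H2-Ab1 at 298 ± 50.3 and H2-Eb1 at 269 ± 40.3 CPM per kilobase (SD, n = 4 each). The ranges of the 3 classical chains overlapped one another, and that of Cd74 lay above them. H2-DMa (18.7 ± 2.82) and H2-DMb1 (13.8 ± 1.86) stood apart from the classical chains, with no overlap between the 2 DM chains in control livers. Ciita (2.60 ± 0.515) and Clec9a (1.77 ± 0.216) came next and touched at the edges of their ranges. Flt3 (0.495 ± 0.265) and Xcr1 (0.399 ± 0.0986) were the lowest and overlapped. In Smo-KO livers the order was the same except that Ciita (1.41 ± 0.309 CPM per kilobase) came below Clec9a (1.64 ± 0.146), with overlapping ranges.

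Other genes of the class II pathway, from a list of 20 of which 19 were in the count tables and 16 were tested, did not share a direction. Of the 16, 10 had a lower and 6 a higher mean in Smo-KO livers, the median log2 fold change was -0.04, and 1 had an unadjusted p under 0.05 (H2-DMb2, lower). Over all genes tested 13.8% passed that threshold. Neither edgeR nor DESeq2 called any of the 16 at an adjusted p under 0.05. The lysosomal protease Ctss, which trims the invariant chain, was at 286 ± 55.7 CPM in control and 270 ± 56.6 CPM in Smo-KO livers (SD, n = 4 each). Lgmn, a further lysosomal protease, was at 325 ± 30.1 and 337 ± 30.8 CPM, and Ifi30, the thiol reductase of the same compartment, at 84.9 ± 10.9 and 74.1 ± 10.3 CPM. The 95% interval of each of these differences included 0.

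Genes of the proteins that occupy the X and Y boxes also had 95% intervals that included 0. The log2 fold changes were, for the X box complex, -0.23 for Rfx5, 0.03 for Rfxank and 0.13 for Rfxap, for the Y box subunits, -0.15 for Nfya, 0.01 for Nfyb and -0.04 for Nfyc, and for Creb1 0.09. The costimulatory genes had log2 fold changes of -0.44 (Cd40), -0.04 (Cd80) and -0.26 (Cd86). That of H2-Ob, a chain of the H2-DM inhibitor, was -0.02, and that of Marchf1, a ubiquitin ligase that removes class II from the cell surface, was 0.10. The smallest unadjusted p among these 12 genes was 0.0669, for Cd40. H2-Ea, H2-Eb2 and H2-Oa had too few reads to be tested. H2-Eb2 had 10, 16, 8 and 16 reads in control mice and 2, 2, 8 and 6 reads in Smo-KO mice.

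**Figure D2:**
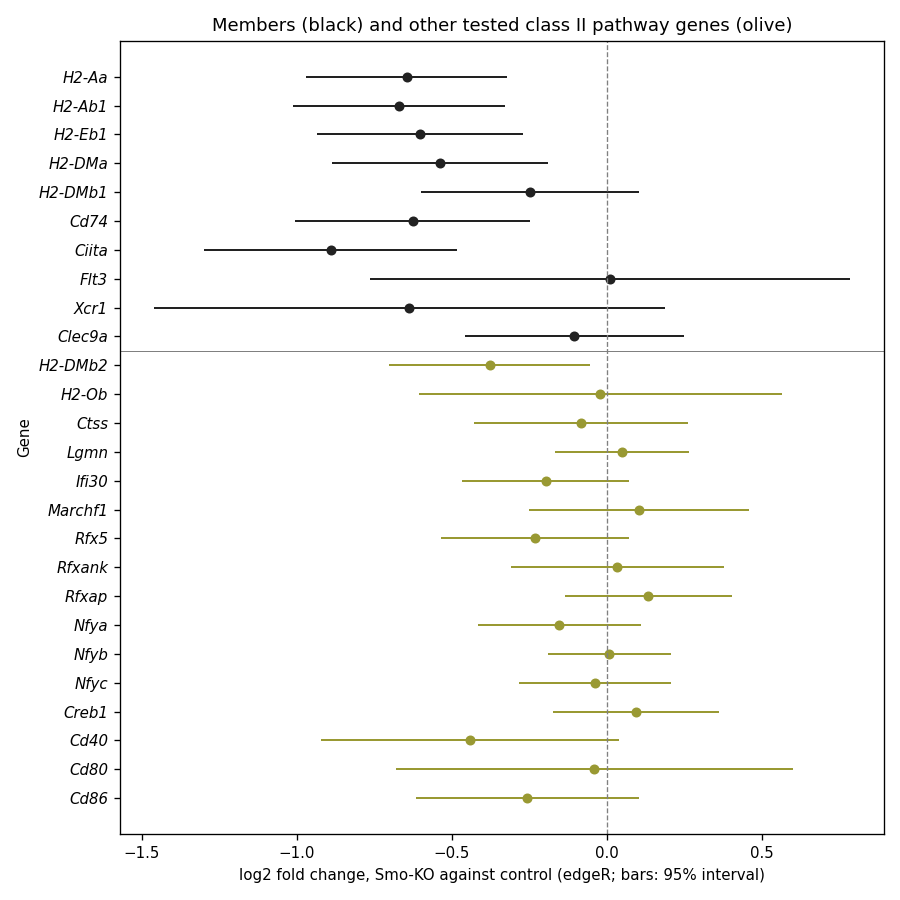
Log2 fold change of Smo-KO against control livers from edgeR's quasi-likelihood test (points) with 95% intervals (bars) for the 10 genes (black) and the 16 other class II pathway genes tested (olive). The intervals of H2-Aa, H2-Ab1, H2-Eb1, H2-DMa, Cd74 and Ciita lie below 0, as does that of H2-DMb2 in the lower part.

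The genes whose pattern over the livers was most like that of the class II genes were sought among all genes tested, by Pearson's r with the mean log2 CPM of H2-Aa, H2-Ab1, H2-Eb1, H2-DMa, H2-DMb1 and Cd74. Outside the 10 genes the highest r belonged to Cxcl9 (0.99), a chemokine induced by interferon gamma. It was followed by H2-K1 (0.98), a class I chain, Klf2 (0.96), Psmb9 (0.95), a subunit of the immunoproteasome, H2-DMb2 (0.94), Blcap (0.94), Kcnj10 (0.93), Traf3ip3 (0.93), Marchf3 (0.93) and Grap2 (0.93). These r describe 8 livers, and since the genes were picked as the most alike of 12977, no p is given. Spearman's rho of Cxcl9 was 0.952, and r was 0.97 without Smo-KO mice 2 and 4, the livers farthest from the median of Cxcl9.

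Cxcl9 had 87.7, 123, 174 and 170 CPM (control mice 1 to 4) against 40.3, 32.4, 90.1 and 28.1 CPM (Smo-KO mice 1 to 4). It had the order of livers that Cd74 had in all 8 places, with Smo-KO mouse 3 above control mouse 1. Within groups the likeness of Cxcl9 was similar, with an r of 0.98 of the deviations from the group means. Among the genes outside that mean, this within-group r was 0.72 for Ciita, 0.56 for Flt3, 0.21 for Clec9a and 0.15 for Xcr1.

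**Figure D3:**
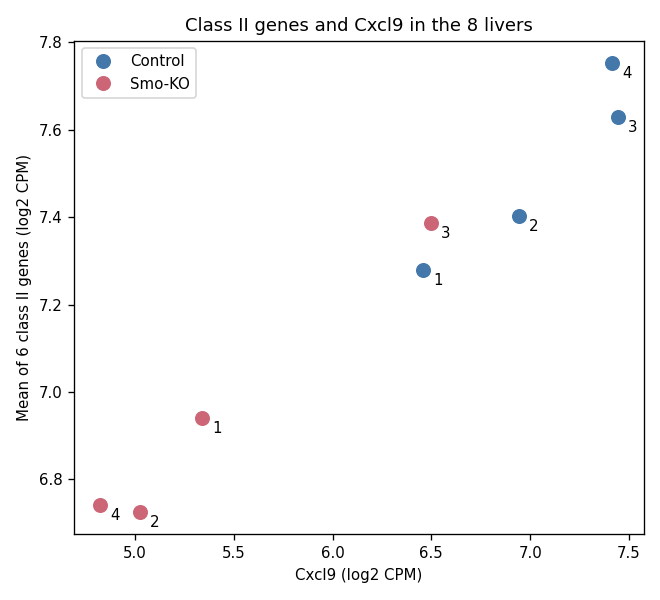
Mean log2 CPM of the 6 class II genes H2-Aa, H2-Ab1, H2-Eb1, H2-DMa, H2-DMb1 and Cd74 against log2 CPM of Cxcl9 in control (blue) and Smo-KO (red) livers, with mouse numbers. Smo-KO mouse 3 lies beside control mouse 1, and the other 3 Smo-KO mice lie at the lower left.

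Genes of interferon gamma signaling summed to 911 ± 156 CPM in control and 617 ± 88.4 CPM in Smo-KO livers, with overlapping groups. Of 10 listed genes 9 were tested, of which 5 had an unadjusted p under 0.05, all 5 lower, with a median log2 fold change of -0.49 over the 9. Over all genes tested 7.15% had an unadjusted p under 0.05 with a lower mean. This list, too, was chosen with earlier results of these data known, so the shares are a description. After adjustment edgeR called 0 of the 9 and DESeq2 called 4, where DESeq2 called 1.29% of all genes, 0.655% lower. Irf1, which acts on the Ciita gene, had a log2 fold change of -0.49 (edgeR adjusted p 0.132) and no overlap between groups, and that of Cxcl9 was -1.55 (adjusted p 0.116). Socs1 and Cxcl10 had log2 fold changes of -1.27 and -1.17, whereas those of the receptor chains Ifngr1 and Ifngr2 were 0.07 and 0.16 and those of the kinases Jak1 and Jak2 were -0.12 and -0.05. Ifng had at most 6 reads in any liver and was not tested.

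Summed levels of the dendritic cell and B cell marker lists overlapped between the groups. The summed level of 10 cDC1 markers was 152 ± 13.7 CPM in control and 151 ± 12.5 CPM in Smo-KO livers (SD, n = 4 each), with Irf8 the most abundant. Of these 10, 8 had a lower and 2 a higher mean in Smo-KO livers, with a median log2 fold change of -0.11, and the higher means of Cadm1 and Wdfy4 offset the others in the sum. In edgeR 1 of the 10 had an unadjusted p under 0.05 (Naaa, log2 fold change -0.38), and the next smallest p, 0.0776, belonged to Cadm1, whose mean was higher (log2 fold change 0.25). The 7 cDC2 markers summed to 367 ± 29.4 and 354 ± 16.2 CPM, with Sirpa, which macrophages also express, making up most of the sum. Of the 6 tested 1 had an unadjusted p under 0.05. This was Cd7, which lymphocytes also express and which had no overlap between groups (log2 fold change -0.84, edgeR adjusted p 0.126). Irf4 (-0.47) and Itgam (0.22) came next by p. Over all genes tested 13.8% had an unadjusted p under 0.05.

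The 5 markers shared by conventional dendritic cells summed to 199 ± 15.2 CPM in control and 199 ± 15.9 CPM in Smo-KO livers, mostly from Dpp4, and none had an unadjusted p under 0.05. Zbtb46, with 19 to 35 reads per liver, was at 2.86 ± 0.571 CPM in control and 3.24 ± 0.755 CPM in Smo-KO livers. The log2 fold changes of Btla and Itgax were -0.49 and 0.14. Among mature dendritic cell markers 3 of the 5 tested had an unadjusted p under 0.05, all lower, as had 7.15% of all genes. Ccr7, which guides mature dendritic cells and T cells to lymph nodes, had a log2 fold change of -0.63, Ccl22 of -0.71 and Fscn1 of -0.42, with edgeR adjusted p of 0.266, 0.260 and 0.284, respectively. The summed level of that list, in which Relb is the most abundant, was 72.2 ± 8.31 and 63.4 ± 7.78 CPM.

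Plasmacytoid dendritic cell markers summed to a mean of 761 CPM in control and 773 CPM in Smo-KO livers, with overlapping groups, most of it from Bst2. Of the 4 tested 1 had an unadjusted p under 0.05 (Ly6d, higher, log2 fold change 0.75), as did 13.8% of all genes. Siglech, the most specific, had a log2 fold change of 0.29 (edgeR adjusted p 0.589) and Tcf4 of 0.08. Ccr9, too low to be tested, had 9, 21, 12 and 21 reads in control livers and 7 reads in each Smo-KO liver, so its groups did not overlap. B cell markers, of which 9 of 10 were in the tables, summed to 26.6 ± 2.50 and 26.8 ± 3.62 CPM with Cd22 the most abundant, and none of the 8 tested had an unadjusted p under 0.05. Fcer2a, with 8 to 13 reads, was higher in every Smo-KO than in every control liver (log2 fold change 0.61, edgeR adjusted p 0.372), and the log2 fold changes of Bank1 and Pax5 were -0.17 and 0.23. Cd79a and Ms4a1, which mark B cells, were each at or under 2.25 CPM on average in both groups. Of the dendritic cell ligands, Flt3l was at 17.8 ± 3.89 and 18.8 ± 4.70 CPM, Csf2 had 0 reads in all livers and Xcl1 was too low to be tested.

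Kupffer cell markers summed to 1126 ± 238 CPM in control and 1101 ± 278 CPM in Smo-KO livers, led by Cd5l, with 0 of 7 at an unadjusted p under 0.05. Their lowest p belonged to Vsig4, Folr2 and Timd4, with log2 fold changes of 0.17, 0.19 and -0.19. Macrophage markers summed to 1019 ± 47.2 and 1149 ± 62.8 CPM, with no overlap between groups. Without Lyz2, the most abundant of them and left out after its value was seen, the sums were 607 ± 32.4 and 637 ± 42.3 CPM and overlapped. Of the 7 macrophage markers 2 had an unadjusted p under 0.05, both higher, and 2 others, Csf1r and Mrc1, had a lower mean (log2 fold changes -0.13 and -0.02). Trem2, a lipid receptor of macrophages, had a log2 fold change of 0.75 (edgeR adjusted p 0.0957, 0.0457 with the replicate number as a block, DESeq2 1.69e-04), Lyz2 of 0.31 and Gpnmb of 0.16. Monocyte markers, led by Plac8, summed to 115 ± 31.0 and 117 ± 21.1 CPM, with 1 of 6 at an unadjusted p under 0.05 (Cx3cr1, higher, log2 fold change 0.47), and Ly6c2 and Ccr2 had log2 fold changes of -0.68 and 0.23. Markers of sinusoidal endothelium, led by Stab1, summed to 230 ± 16.5 and 226 ± 59.0 CPM, with 1 of 6 under that threshold (Pecam1, lower, log2 fold change -0.50). The log2 fold changes of Stab1 and Clec4g were 0.29 and -0.26. Over all genes tested 13.8% had an unadjusted p under 0.05, 7.15% lower and 6.7% higher.

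Most T cell markers and the summed NK cell markers were also lower on average in Smo-KO livers. Of 8 T cell markers 7 had a lower mean, and 6 of these had an unadjusted p under 0.05, among them Cd8a (log2 fold change -0.77, edgeR adjusted p 0.116, DESeq2 0.0153) and Cd3e (-0.98, edgeR 0.175, DESeq2 0.0424). Themis, the most abundant of the list, had a higher mean instead (log2 fold change 0.96, edgeR adjusted p 0.0957, DESeq2 2.69e-04). DESeq2 thus called 3 of the 8, and edgeR 0. Over all genes tested 7.15% were lower and 6.7% higher at an unadjusted p under 0.05, and DESeq2 called 1.29%. The list summed to 52.0 ± 6.17 CPM in control and 45.5 ± 6.97 CPM in Smo-KO livers, and without Themis, a choice made after seeing its value, to 40.8 ± 4.77 and 23.6 ± 5.32 CPM with no overlap between groups. NK cell markers summed to 16.9 ± 3.88 and 8.24 ± 1.58 CPM, again with no overlap. Il2rb, their most abundant gene, which T cells share, had a log2 fold change of -1.25 (edgeR adjusted p 0.0957, DESeq2 3.65e-04), Eomes of -0.83 and Prf1 of -0.69, and the defining markers Ncr1 and Klrb1c had less than 1 CPM on average in both groups. The part of the T cell, NK cell, macrophage and interferon gamma genes in the level of the class II genes was not tested.

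**Figure D4:**
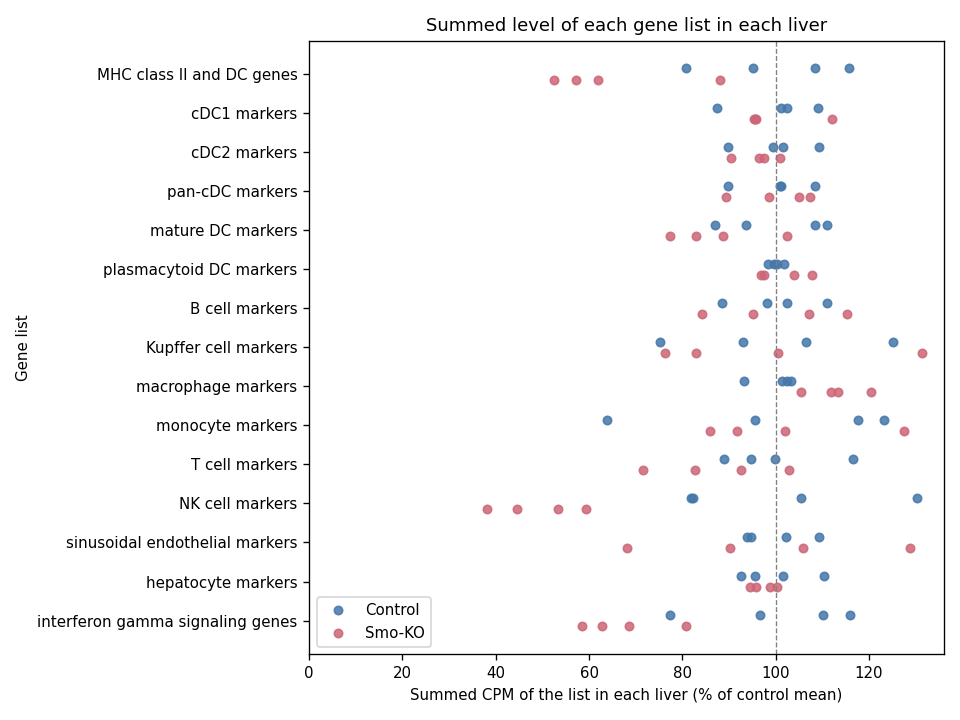
Summed CPM of each gene list in each liver as a percentage of the control mean (linear axis from 0), for control (blue) and Smo-KO (red) livers. The 10 MHC class II and dendritic cell genes, the NK cell markers and the interferon gamma genes sit to the left in Smo-KO livers, whereas the cDC1, pan-cDC, B cell and Kupffer cell markers are spread around 100% in both groups. The pan-cDC sum comes mostly from Dpp4.

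In H2-Aa, H2-Ab1, H2-Eb1 and Cd74 the groups overlapped through Smo-KO mouse 3 alone. Without it the log2 fold changes of H2-Aa, H2-Ab1 and Cd74 were -0.80, -0.84 and -0.84, with edgeR adjusted p of 0.0508 for each, and still none of the 10 genes was called. That mouse had the fewest reads, 8203299, but its Smo level of 4.26 CPM lay between those of Smo-KO mice 2 and 4. Its Clec9a, Xcr1 and Flt3 were each the highest of the Smo-KO mice.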

How the data were processed

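RNA of 8 livers was compared, 4 per group. For each liver the authors deposited counts, whole numbers of reads per gene symbol without normalization. The submitters' processing notes name fastp, STAR 2.7.5, featureCounts 2.0.1 and GRCm38, while the tables end with the summary entries that htseq-count writes; the annotation and strand setting are not given in the sources used here. Reads on no feature (8.33% ± 0.743 in control, 9.23% ± 0.330 in Smo-KO livers) or on several genes (2.55% ± 0.0719 and 2.51% ± 0.0456) were left out of library sizes.

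Counts were analysed with edgeR 4.0.16 under R 4.3.3 and its quasi-likelihood functions glmQLFit and glmQLFTest after filterByExpr and TMM scaling; the model held genotype alone, and p-values of 12977 genes were adjusted by Benjamini-Hochberg. Standard errors follow from the F statistic, and a prior count of 2 was added for log2 CPM. DESeq2 1.42.0 was an alternative test. Exact permutation tests covered the 70 assignments of 4 of 8 livers, two-sided. The mice are taken as separate animals. Library pairs within a group differed by a chi-square of 7.76 to 17.5 per degree of freedom, so no library was a copy of another of its group. Both tests were checked on simulated counts. Depth describes counting error only. Figures were drawn with matplotlib 3.10.9.

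The 10 genes, the lists of other genes and the motifs were chosen with earlier results of these data known. Named were all 10 genes, Smo, the class II pathway list, from each marker list its most abundant gene, its genes at 0 and up to 3 with the lowest p, and the 10 genes most like the class II genes. Other marker genes that define a cell type, genes of interferon gamma signaling, CTNGNAAC and the sums without Themis and without Lyz2 were named after values were seen. Ighm, Tf and H2-Ea-ps were not matched. Results of 2 single genes of the lists are not reported here, though counts and sums include them. Alternatives were other size factors, no filter, at least 10 counts in every sample, DESeq2, the replicate number as a block and each mouse left out in turn.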

Additional observations from a re-analysis of the deposited data

Results flagged for a closer look

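For 31 measures both groups of 4 livers were examined, 62 groups in all. In 3 of them 1 liver stood far from the rest, where chance gives about 1 in 20. Clec9a was 4.76 CPM in control mouse 3, against 6.07 to 6.32 CPM in the other control mice, and without this mouse the log2 fold change of Clec9a was -0.19 (edgeR adjusted p 0.734). The cDC1 markers summed to 170 CPM in Smo-KO mouse 3, against 144 to 145 CPM in the other Smo-KO mice. Reads on genes were 8203299 in Smo-KO mouse 3 and 9367795 to 9543675 in the rest of its group. No cause was tested.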

How the results depend on the processing

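Under every size factor tried the median over all genes stayed near 0, between -0.00711 and 0.00528 (log2). The number of genes called over all genes was 0 in edgeR's test, 61 with no filter, 167 with DESeq2's Wald test and 8 with the replicate number as a block. Leaving out 1 mouse at a time gave 0 to 78 genes, with 78 without Smo-KO mouse 1, 5 without control mouse 1 and 4 without Smo-KO mouse 3. Of the 10 class II and dendritic cell genes, 0 were called in edgeR's test, 3 with no filter (H2-Aa, H2-Ab1 and Ciita), 5 with DESeq2 and 0 under every other alternative, including the replicate block and each mouse left out. The cause of these changes was not tested. Of 138 alternative log2 fold changes of the 10 genes, 4 changed sign, all of Flt3: -0.20 without control mouse 1, -0.10 without control mouse 3, -0.11 without Smo-KO mouse 3 and -0.07 without Smo-KO mouse 4. Without control mouse 4 that of Flt3 was 0.43. The adjusted p of Ciita ran from 0.00563 to 0.251 and that of H2-Aa from 0.0111 to 0.269. At least 10 counts in every sample left Flt3 and Xcr1 untested. Livers with the same replicate number correlated in their deviations from the group means by 0.10, 0.19, 0.06 and 0.11, and control mice 2, 3 and 4, but not 1, correlated best with the Smo-KO mouse of their own number. This is a hint from the data; since the third value is under 0.1 and no label ties the numbers to a shared litter or day, the mice were not treated as pairs. Of the 10 genes most like the class II genes, 2 (Cxcl9 and H2-K1) remained when deviations from the group means were used. Precision of Flt3 and Xcr1 is limited by their few reads.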

Other observations

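By deviations from the group means, in which the difference between the groups plays no part, the genes most like the class II genes over the 8 livers were Gdpd1, Cxcl9, Snhg5, Plekho1, Camkk1, Plxdc1, H2-K1, Clec4a3, Ucp2 and Mmgt2, with r from 0.94 to 0.99. They were picked as the most alike of 12977 genes, and Gdpd1, Camkk1, Plxdc1 and Mmgt2 had at most 48 reads in any liver. Smo-KO mouse 3 had the highest class II mean of its group, at 7.39 log2 CPM against 6.73 to 6.94 in the others. Likeness within groups did not go with a lower mean in all the genes listed, and none of the differences named next was called. Snhg5, a small nucleolar RNA host gene, had a higher mean in Smo-KO livers (log2 fold change 0.34, edgeR adjusted p 0.316), as did Clec4a3, a lectin receptor of myeloid cells (0.18, adjusted p 0.580), and Ucp2, a mitochondrial carrier (0.09, adjusted p 0.695). H2-K1, the class I heavy chain, was at 1828 ± 89.9 CPM in control and 1535 ± 139.9 CPM in Smo-KO livers.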
